A study of Mus musculus with 10 samples.

Results

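The 8 loci described here surround 8 windows whose methylation in the lung of ovalbumin (OVA)-induced mice stood apart from that in saline mice and in mice that also received an ethanol extract of Descurainia sophia seeds (DSE). They comprise every window of 1000 bp, taken at steps of 500 bp, that starts within 50 kb of one of those windows in mm10, which gave 184 of the 446336 windows measured. The loci carry the names Nebl, Lig1, Abi1, Spaca1, Soat1, Fut8, Gnb5 and Srek1ip1, and the window in the middle of each is called its anchor. The anchors were chosen by the size of their own OVA vs. saline and DSE vs. OVA differences, so their values and those of the 10 windows that share positions with them are a description without a test. The other 166 windows, which start at least 1000 bp away and share no position with an anchor, are called neighbours. Whether the change at an anchor reached these neighbours was the question asked.

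Lung DNA came from 10 female BALB/c mice, bought at 8 weeks of age. The 3 saline mice received saline only. The 3 OVA-induced mice were sensitized with 50 µg of OVA in alum on Days 0 and 7, challenged intranasally with 25 µg from Day 12 for 4 days and given vehicle by mouth, and the 4 DSE-treated mice, labelled Herb, had the same OVA schedule and 200 mg/kg of DSE by mouth on Days 9 to 15. Each library held the DNA of whole lung tissue, so a change in the cells present and a change within cells cannot be told apart in any value below. SureSelect Methyl-seq captured selected regions before bisulfite conversion, and the percentage given for a mouse is the share of its CpG calls in a window that were methylated, where it had at least 20 calls.

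DNA methylation in mammals is placed mainly on the cytosine of CpG dinucleotides, and most CpGs of the genome are methylated. CpG-rich promoters of active genes are as a rule unmethylated, while introns and intergenic stretches are methylated except at regulatory elements, whose state differs between cell types. Methylation of CpGs that lie close together is often shared, and so a changed region is commonly seen in several overlapping windows.

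The anchors lay at chr2:17414501-17415500 (Nebl), chr7:13271501-13272500 (Lig1), chr2:23038001-23039000 (Abi1), chr4:34114501-34115500 (Spaca1), chr1:156506001-156507000 (Soat1), chr12:77567501-77568500 (Fut8), chr9:75289001-75290000 (Gnb5) and chr13:104818001-104819000 (Srek1ip1). Against RefSeq transcripts of GRCm38.p6, the Nebl anchor was intronic in Nebl, which encodes nebulette, an actin-binding protein of the muscle Z-disc (intron 9 of 25 in NM_001362722.1). The Abi1 anchor was in intron 1 of Abi1, an adaptor of the WAVE complex that drives actin assembly, with its middle 1695 bp from the nearest annotated start site. The Srek1ip1 anchor was in intron 1 of Srek1ip1, which encodes a partner of a splicing regulator, with its middle 1331 bp from the start site. The Lig1 anchor was not in Lig1, the ligase that joins Okazaki fragments, but in intron 2 of 4 of Zswim9 on the minus strand, with the nearest Lig1 start site 5174 bp from its middle. The Gnb5 anchor was not in Gnb5, a G protein beta subunit that pairs with RGS proteins, but in Myo5c, a class V myosin of secretory epithelia, where its first part overlapped exon 32 of 41.

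The remaining 3 anchors were intergenic. The middle of the Spaca1 anchor was 64934 bp from the start of Spaca1, a membrane protein of the sperm acrosome. That of the Soat1 anchor was 32173 bp from the start of Soat1, which esterifies cholesterol, and that of the Fut8 anchor was 157860 bp from the nearest start of Fut8, the core fucosyltransferase of N-glycans. No annotated start site lay within 50 kb of the Spaca1 and Fut8 anchors. The names of these 3 loci, and those of the Lig1 and Gnb5 loci, are therefore labels of a nearby gene and not of the gene that holds the window.

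The anchors differed in their number of CpGs. The reference has 2 CpGs in the Lig1 anchor, 6 in the Soat1 anchor, 7 in the Nebl anchor, 10 in those of Abi1 and Fut8, 15 in that of Spaca1 and 17 in those of Gnb5 and Srek1ip1, against a median of 13 over all windows. BALB/c may differ from this reference, which is of another strain. The following stretches of the plus strand of GRCm38.p6, with the C and G of each CpG in capitals, hold the CpGs on which the comparisons of overlapping windows below turn: both CpGs of the Lig1 anchor (chr7:13271940-13271971 and chr7:13272282-13272313), 3 of the 4 CpGs in the first 500 bp of the Nebl anchor (chr2:17414558-17414829) and 2 of the 3 in its second 500 bp (chr2:17415423-17415496), all 5 CpGs in the second 500 bp of the Gnb5 anchor (chr9:75289742-75290005) and 7 of the 9 in the first 500 bp of the Spaca1 anchor (chr4:34114535-34114834), the locus where a neighbour changed as well.
Lig1, first 500 bp: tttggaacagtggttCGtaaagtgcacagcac
Lig1, second 500 bp: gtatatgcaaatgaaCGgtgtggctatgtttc
Nebl, first 500 bp: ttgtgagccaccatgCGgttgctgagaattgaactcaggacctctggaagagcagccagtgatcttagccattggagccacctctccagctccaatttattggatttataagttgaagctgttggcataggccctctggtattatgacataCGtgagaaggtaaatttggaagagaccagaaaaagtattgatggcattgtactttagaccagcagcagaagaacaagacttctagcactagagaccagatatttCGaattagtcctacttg
Nebl, second 500 bp: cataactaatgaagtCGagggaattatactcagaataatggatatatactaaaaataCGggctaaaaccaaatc
Gnb5, second 500 bp: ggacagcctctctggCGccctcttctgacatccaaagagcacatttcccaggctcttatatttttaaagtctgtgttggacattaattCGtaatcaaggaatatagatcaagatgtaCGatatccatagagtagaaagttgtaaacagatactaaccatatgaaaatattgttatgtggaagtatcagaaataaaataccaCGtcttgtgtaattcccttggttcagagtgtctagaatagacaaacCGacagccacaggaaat
Spaca1, first 500 bp: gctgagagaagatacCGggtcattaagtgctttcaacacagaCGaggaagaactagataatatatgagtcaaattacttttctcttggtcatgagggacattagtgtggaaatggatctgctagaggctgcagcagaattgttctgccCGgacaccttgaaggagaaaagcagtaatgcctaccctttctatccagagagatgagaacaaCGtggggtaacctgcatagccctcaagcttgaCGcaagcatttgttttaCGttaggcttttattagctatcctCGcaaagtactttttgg

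At 5 anchors, those of Nebl, Lig1, Abi1, Spaca1 and Soat1, the OVA-induced mice were higher than both other groups (hyper/hypo), and at those of Fut8, Gnb5 and Srek1ip1 they were lower (hypo/hyper). Of the 435789 windows tested in both comparisons, 1373 (0.315%) passed the thresholds in both with opposite signs, and by the sum of both differences the anchors ranked from 3 (Nebl) to 39 (Srek1ip1) among them. Differences are between the pooled calls of the groups, in percentage points, and SDs are between mice.

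The Nebl anchor was methylated at 81.0%, 62.2% and 52.9% in the saline mice, at 81.5%, 94.1% and 85.7% in the OVA-induced mice and at 23.7%, 47.2%, 25.6% and 36.1% in the DSE-treated mice. The 3 OVA-induced mice were above all others, although OVA-induced replicate 1 and saline replicate 1 were nearly level, and the 4 DSE-treated mice were below all others. The differences were 24.8 for OVA minus saline and -57.5 for DSE minus OVA, the largest in DSE vs. OVA of the 8.

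At the Lig1 anchor the saline mice had 36.1%, 36.7% and 44.7%, the OVA-induced mice 86.7%, 74.5% and 60.4% and the DSE-treated mice 20%, 32.5%, 29.0% and 36.7%. The OVA-induced mice were apart from the rest, while the saline and DSE-treated mice overlapped. The differences were 32.4 for OVA minus saline and -43.1 for DSE minus OVA.

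The Abi1 anchor rested on 2 OVA-induced mice that were far apart, at 84.7% and 40.4%, since replicate 3 had only 11 calls. The saline mice had 27.0%, 30.5% and 24.6% and the DSE-treated mice 27.4%, 32.9%, 25.2% and 23.6%. Both OVA-induced mice were above all others, and the mean of 62.5% ± 31.4 (SD, n = 2) had the widest spread of any group at any anchor. Without replicate 1, and so with replicate 2 alone, the difference for OVA minus saline was 13.7 in place of 36.3. That for DSE minus OVA was -13.4 in place of -35.9.

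At the Spaca1 anchor methylation was 32.6%, 29.3% and 12.7% in saline, 65.0%, 61.5% and 75.7% in OVA-induced and 35.6%, 44.3%, 35.6% and 42.6% in DSE-treated mice. The 3 groups did not overlap, with the DSE-treated mice between the other two. The difference for OVA minus saline, 44.2, was the largest of the 8 and that for DSE minus OVA, -26.6, the smallest.

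The Soat1 anchor was methylated at 83.7%, 70.8% and 69.6% in saline, at 97.6%, 96.3% and 95.8% in OVA-induced and at 46.1%, 64.5%, 43.5% and 47.3% in DSE-treated mice. All 3 OVA-induced mice were close to complete methylation, and all 4 DSE-treated mice lay below the saline mice. The differences were 22.1 for OVA minus saline, -46.8 for DSE minus OVA and -24.7 in DSE vs. saline.

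Among the hypo/hyper anchors, that of Fut8 had 30.8%, 31.7% and 41.7% in saline mice, 9.3% and 9.76% in the 2 OVA-induced mice with enough calls and 50.7%, 47.4%, 60.2% and 48.4% in DSE-treated mice. The Gnb5 anchor had 19.1%, 31.8% and 27.3% in saline, 2.27%, 11.8% and 4.55% in OVA-induced and 45.3%, 39.1%, 51.2% and 52.1% in DSE-treated mice. At both, the groups did not overlap and the DSE-treated mice exceeded the saline mice, by 18.6 and 21.3 points. The Srek1ip1 anchor had 47.5%, 48.9% and 40.0% in saline, 26.9%, 18.1% and 16.7% in OVA-induced and 67%, 36.7%, 49.2% and 38.4% in DSE-treated mice. There the saline and DSE-treated mice overlapped, and DSE replicate 1 was the highest. The differences for these contrasts, OVA minus saline and DSE minus OVA, which share the OVA-induced mice, were -24.8 and 43.4 at Fut8, -19.9 and 41.2 at Gnb5 and -26.3 and 32.2 at Srek1ip1.

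**Figure D1:**
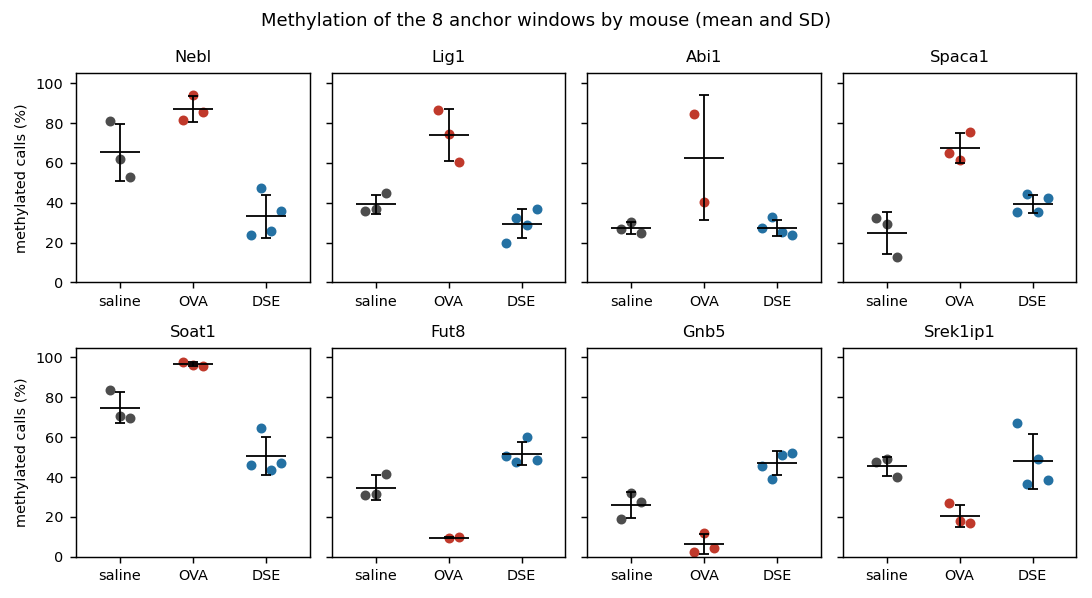
Methylated share of CpG calls (%, vertical axis) at the 8 anchor windows in saline, OVA-induced and DSE-treated mice. Points are mice with at least 20 calls, the horizontal bar is the mean and the error bar the SD. The OVA-induced mice sit above all others in the first 5 panels and below all others in the last 3, and at Abi1 they were 84.7% and 40.4%.

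The depth at the anchors differed between the groups in the same windows. At the Abi1 anchor, DSE-treated mice had 380 to 664 calls, saline mice 59 to 122 and OVA-induced mice 11 to 59. At the Fut8 anchor the ranges were 209 to 540, 72 to 91 and 19 to 43, and at the Gnb5 anchor 133 to 422, 44 to 47 and 22 to 44. Relative to the total calls of each library, the DSE-treated mice were deeper than the OVA-induced mice at all 8 anchors, by 12.8 times at Abi1, 10.5 at Fut8, 7.53 at Gnb5, 5.99 at Nebl, 2.82 at Srek1ip1, 2.67 at Soat1, 2.54 at Lig1 and 1.29 at Spaca1. The median of these ratios was 4.4, against 1.15 over the 166 neighbours, 1.05 over all windows and 1.5 over the other 1365 windows that passed in both comparisons with opposite signs. All 4 DSE-treated mice were deeper than all 6 other mice at 6 of the 8 anchors (75%), at 28 of the 166 neighbours (16.9%) and at 15.9% of all windows. The part of depth in the differences at the anchors was not tested.

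Over the whole table, the share of windows called in DSE vs. OVA was lowest near equal depth and higher on both sides of it. It was 1.17% at ratios below 0.8, 0.624% in the range around equal depth, which held no anchor, 2.95% from there up to a ratio of 2, 6.21% at 2 to 3, 9.8% at 3 to 5 and 12.1% above 5, where 4 of the anchors lay. Counting error also differed between the groups. For OVA-induced replicate 1 at the Srek1ip1 anchor, with 7 of 26 calls methylated, the 95% Wilson interval of the 26.9% ran from 13.7% to 46.1%, while for DSE replicate 1 at the Abi1 anchor, with 182 of 664, it ran from 24.2% to 30.9%. Such intervals hold only the error of counting, and calls from PCR copies or from one molecule are not independent of each other.

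**Figure D2:**
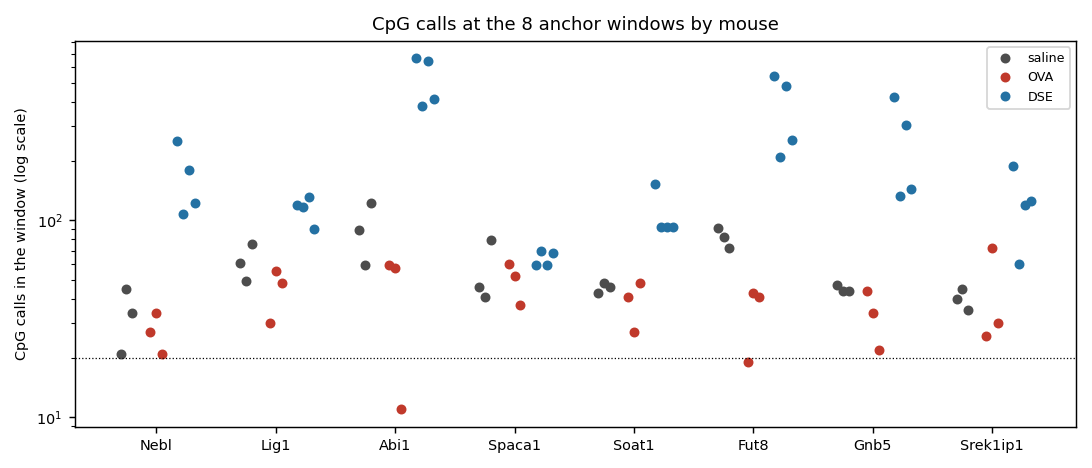
CpG calls (logarithmic vertical axis) in each of the 8 anchor windows, 1 point per mouse, by group, with a dotted line at the minimum of 20 calls. The DSE-treated mice are the deepest at 6 anchors, at Abi1 with 380 to 664 calls against 11 to 122 in the other mice, and mix with the rest at Spaca1.

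The sums in a window did not always come from the same CpGs in every mouse. Over 5945 pairs of overlapping windows that differ by a single stretch with CpGs, the calls of that stretch were 0 in 28604 values and at least 10 in 30464, and between 1 and 9 in only 14. A CpG with fewer than 10 calls in a mouse was thus, with few exceptions, left out of that mouse's sum. Where depth differs, the CpGs that enter a window can differ as well.

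At the Lig1 anchor this could be followed to its 2 CpGs. In all 3 OVA-induced mice, the anchor and the window 500 bp before it held the same 30, 55 and 48 calls, of which the same 26, 41 and 29 were methylated. In the saline mice the anchor held 13, 10 and 12 calls more than that window, with 1, 0 and 1 of them methylated, and in the DSE-treated mice 70, 58, 58 and 33 more, with 0, 0, 1 and 1 methylated. The CpGs the windows do not share are one at position 13272297, in the second 500 bp of the anchor, and one at 13271225. The added calls, which were nearly all unmethylated, thus made up 36.7% to 58.3% of the anchor's calls in DSE-treated mice, 15.8% to 21.3% in saline mice and 0% in OVA-induced mice. In the window without them, methylation was 43.8% to 51.6% in saline, 60.4% to 86.7% in OVA-induced and 48.0% to 64.4% in DSE-treated mice, with differences of 24.5 for OVA minus saline and -17.4 for DSE minus OVA in place of 32.4 and -43.1. Without these calls, OVA-induced replicate 3 lay below DSE replicate 2.

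At Nebl the window 500 bp before the anchor showed little of the difference. In the mice where both parts were counted, the anchor joins a methylated first 500 bp to a second 500 bp of low methylation. In the window 500 bp before the anchor, which holds its first 4 CpGs, methylation was 78.3% to 87.1% in saline, 81.5% to 94.1% in OVA-induced and 74.6% to 85.9% in DSE-treated mice. In the window 500 bp after it, which spans its last 3 CpGs, it was 8.46% to 19.7%, 16.2% to 21.7% and 10.8% to 14.8%. For the OVA-induced mice and saline replicate 1, this later window held the same calls as the neighbour 1000 bp after the anchor. None of their calls there came from the anchor's last 3 CpGs. The differences in OVA vs. saline were 5.14 in the earlier window and 5.69 in the later one, against 24.8 in the anchor. Those in DSE vs. OVA were -5.4 and -6.13, against -57.5. The later window compares groups over different CpGs and does not measure the anchor's second 500 bp. The 3 OVA-induced mice and saline replicate 1 had exactly the calls of the earlier window in the anchor, 21 to 34 in all, whereas DSE replicates 1, 3 and 4 had 190, 138 and 75 calls more, of which 13, 10 and 4 were methylated. DSE replicate 2 had 44 calls more and 4 methylated calls fewer, so there the windows also differed in calls that only the earlier one held.

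**Figure D3:**
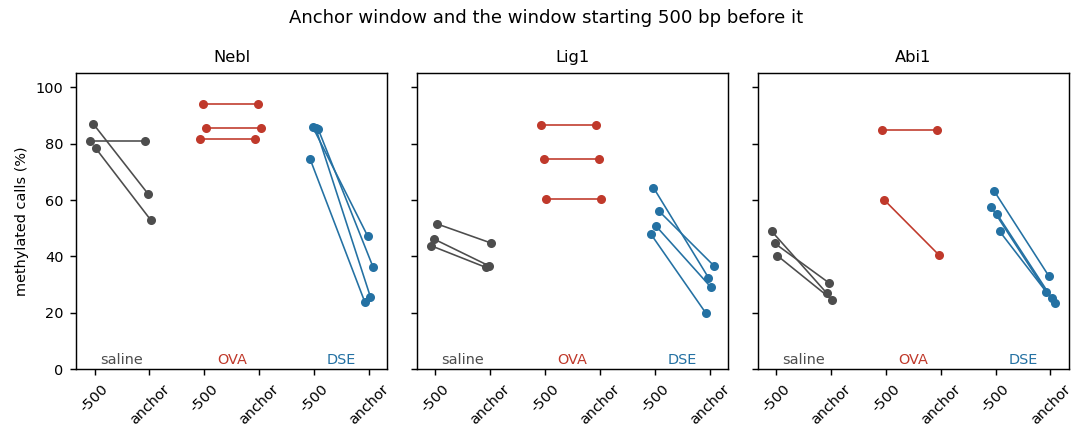
Methylated share of CpG calls (%) in the window starting 500 bp before the anchor (left end of each line) and in the anchor (right end) at Nebl, Lig1 and Abi1, 1 line per mouse. The lines of the OVA-induced mice are flat at Nebl and Lig1, where both windows hold the same calls, and those of all 4 DSE-treated mice fall in each panel.

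The other anchors varied in this respect. At Abi1 the window 500 bp before the anchor had differences of 33.3 and -20.9. There the 2 OVA-induced mice with enough calls had 84.7% and 60%, and DSE replicate 2 lay between them at 63.2%. The calls the anchor held beyond that window made up 55% to 69.5% of its calls in DSE-treated mice and 35.6% to 47.2% in saline mice. Of these, 2.38% to 12.2% were methylated. The share was 0% in OVA-induced replicate 1 and 56.1% in replicate 2, with 25% methylated. The Abi1 window 500 bp after the anchor, at the edge of the CpG-rich promoter, had 0% to 5.98% methylation in every mouse. At Srek1ip1 the window 500 bp before the anchor had 4.63% to 12.6% in all 10 mice, with differences of -2.06 and 0.475 against -26.3 and 32.2 in the anchor. At Soat1 the corresponding window had differences of 7.02 and -18.7. At Gnb5 the anchor and the window 500 bp after it held identical calls in all 10 mice. Every counted call of the anchor thus lay in its second 500 bp, in an intron of Myo5c and not in exon 32, among the 5 CpGs printed above. At 10 calls or more per CpG, the calls of an OVA-induced or saline mouse can come from at most 2 to 4 of these. Those of a DSE-treated mouse can come from all 5, so the CpGs counted can differ between the groups. At Fut8 the window 500 bp after the anchor had differences of -13.4 and 36.4, with 83 to 137 calls in saline and OVA-induced mice and 264 to 599 in DSE-treated mice. In every mouse its calls were those of the anchor and of the neighbour 1000 bp after it. Its differences therefore include those of the anchor.

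At Spaca1 the window 500 bp before the anchor moved with it. Its methylation was 22.3%, 28.9% and 13.3% in saline, 63.7%, 51.7% and 66.7% in OVA-induced and 24.2%, 39.6%, 34.1% and 35.5% in DSE-treated mice. The OVA-induced mice were above all others. The differences were 39.5 and -26.6 in this window, which in every mouse holds the calls of the anchor and those of the next window outward, at 48 to 135 calls and a DSE vs. OVA depth ratio of 1.35.

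Few neighbours were called, and whether their share lay above or below that of the whole table depended on the setting. In OVA vs. saline, 10 of 163 tested neighbours (6.13%) were called at an adjusted p below 0.01 and a difference of at least 10 points in the logistic model, where 7.31% of all windows tested were. Of these, 6 were higher and 4 lower, and over all windows 4.75% were higher and 2.56% lower. In DSE vs. OVA, 1 of 163 (0.613%) was called, which was lower, where 1.62% of all windows were called and 0.725% were lower. In DSE vs. saline, 8 of 164 (4.88%) were called, 4 higher and 4 lower, where 8.01% of all windows were called, 4.95% higher and 3.07% lower. The groups did not overlap at 38 neighbours (23.3%) in OVA vs. saline, against 26.9% of all windows, at 16 (9.82%) against 10.5% in DSE vs. OVA, and at 35 (21.3%) against 24% in DSE vs. saline. The logistic model pools the calls of a group and does not estimate the spread between mice. With limma on M-values no neighbour was called in any of the 3 comparisons, where it called 0, 8 (0.00183%) and 2 (0.000454%) of all windows. At an unadjusted p below 0.05 limma gave 33 (20.2%), 17 (10.4%) and 40 (24.4%) neighbours, slightly above the 19.2%, 9.66% and 24.2% of all windows. An F test that scales for the spread between mice called no neighbour either, and it called 0 windows of the whole table in each comparison. At an unadjusted p below 0.05 it gave 20 (12.3%), 8 (4.91%) and 28 (17.1%) neighbours, below the 15%, 7.17% and 20.4% of all windows. Without OVA-induced replicate 1 the logistic model called 16 neighbours in OVA vs. saline (10.1%, against 9.22% of all windows), and without OVA-induced replicate 2 it called 6 (3.8%, against 6.84%). The share was also above that of all windows without saline replicate 1 (8.07% against 7.63%) and over windows that do not overlap (7.69% against 7.31%).

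In the median, the neighbours showed little difference in the anchor's direction. Signed so that the anchor's own direction is positive, the median difference was 25.6 for OVA minus saline and 42.2 for DSE minus OVA over the 8 anchors, and 10.2 and 18 over the 10 windows that overlap them. Over the 22 tested neighbours at 1 to 5 kb it was -0.202 and 0.288, with 7 and 13 of the 22 above 0. Over the 47 at more than 5 to 20 kb it was -0.42 and -0.168, and over the 94 at more than 20 to 50 kb -0.239 and -0.0181. At 1 to 5 kb, only 1 neighbour moved by 10 points or more in the anchor's direction in each comparison, the same Spaca1 window, and at over 5 to 20 kb none did. Some near neighbours had little room to move that way in OVA vs. saline. That 1000 bp before the Srek1ip1 anchor, a hypo/hyper one, had a mean of 1.8% in saline mice. That 5000 bp after the Lig1 anchor, a hyper/hypo one, had 95.7%. The Gnb5 locus supplied 60 of the 166 neighbours. The size of the differences, whatever their sign, had a median of 2.37 over the neighbours for OVA minus saline and 1.85 for DSE minus OVA, and 2.67 and 1.72 over all windows. At the limit of 50 kb, the neighbour 50000 bp before the Nebl anchor had differences of 1.47 and 3.19, and the next window outward, just outside the limit, held the same values.

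**Figure D4:**
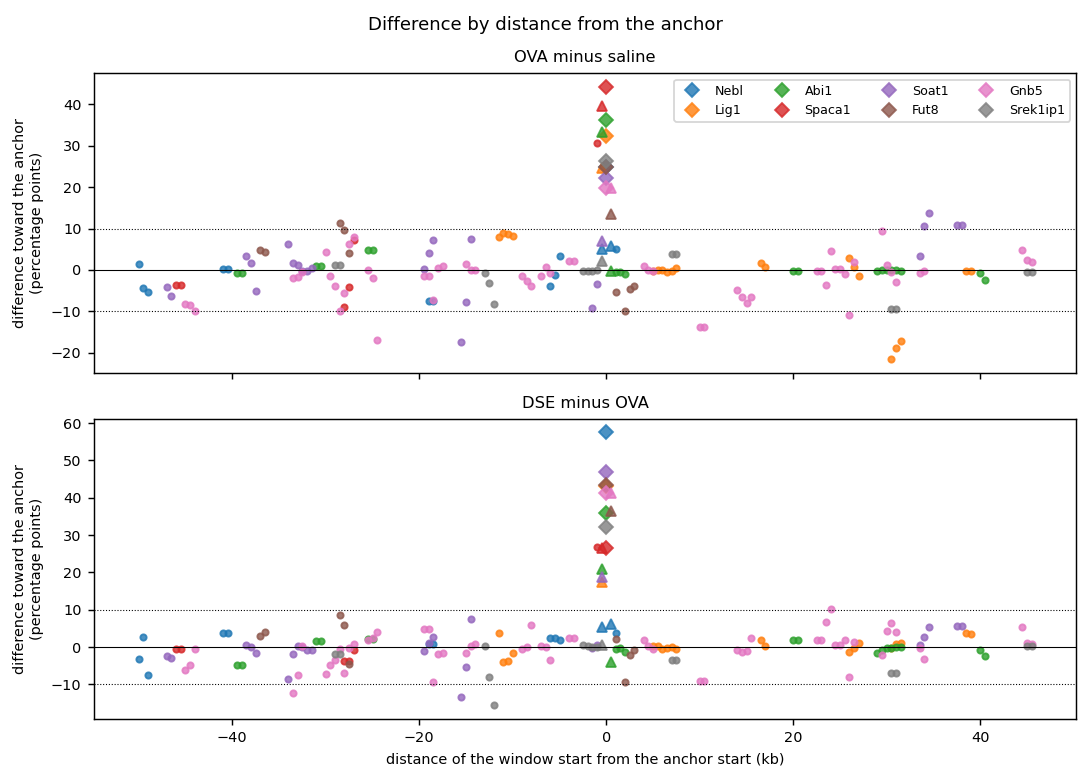
Difference in methylation (percentage points, counted as positive in the direction of the anchor) against the distance of the window's start from that of the anchor (kb), for OVA minus saline and DSE minus OVA. Diamonds are the 8 anchors, triangles the windows that overlap them and circles the neighbours, coloured by locus, and dotted lines mark 10 points. The points fall from 19.9 to 44.2 at the anchors in OVA vs. saline to a median of -0.202 at 1 to 5 kb.

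The one neighbour called in both comparisons lay 1000 bp before the Spaca1 anchor, at chr4:34113501-34114500, in intergenic sequence. In all 10 mice its calls and those of the anchor added up to the calls of the window between them. No call was therefore counted in the 500 bp of the neighbour that lie away from the anchor, and its values came from the 500 bp next to the anchor, where the reference has 3 CpGs at 37 to 256 bp from the anchor's start. It had 12.5%, 28.6% and 14.3% in saline mice, 61.3% and 37.8% in the 2 OVA-induced mice with enough calls and 13.1%, 31.7%, 31.0% and 16% in DSE-treated mice. The 2 OVA-induced mice were above all others. The difference was 30.7 in OVA vs. saline (adjusted p = 3.52e-05, logistic model; 0.149, limma) and -26.7 in DSE vs. OVA (adjusted p = 0.00122, logistic model; 0.386, limma). Its exact two-sided permutation p was 0.2 for OVA minus saline and 0.133 for DSE minus OVA. These are the smallest that 2 mice against 3 and 2 against 4 allow. The window had 11 to 61 calls, and without DSE replicate 1 the call in DSE vs. OVA was lost, while without OVA-induced replicate 1 or 2 it could not be tested. The next neighbours on that side lay 27000 bp and more away and had differences of -8.89 to 7.14 in OVA vs. saline, and no window within 50 kb on the other side of this anchor was in the table.

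At the other loci the closest tested neighbours did not differ by 10 points. At Nebl the neighbour 1000 bp after the anchor had 13.6% ± 6.99 (SD, n = 3) in saline, 18.4% ± 2.92 (SD, n = 3) in OVA-induced and 15.1% ± 2.73 (SD, n = 4) in DSE-treated mice. At Soat1 that 1000 bp before the anchor had 74.5% ± 1.41, 70.9% ± 3.62 and 70.6% ± 2.27, at 194 to 473 calls. At Fut8 that 1000 bp after the anchor had 10.5% ± 4.34, 16% ± 7.69 and 16.5% ± 5.18, at 31 to 64 calls, so that the OVA-induced mice were not lower there as they were at the anchor.

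The CpG-rich promoters next to an anchor were nearly unmethylated in every mouse. At Srek1ip1 the neighbour 1000 bp before the anchor had 1.12% to 2.24% over the 10 mice. At Abi1 the neighbour 1000 bp after the anchor had 0.593% to 1.75%, with all 3 OVA-induced mice below all saline mice and a difference of -0.504 (adjusted p = 0.00505, logistic model; 0.219, limma), far below 10 points. At Gnb5 the closest neighbours, 3500 bp before and 4000 bp after the anchor, had differences of -2.13 and -0.858 for OVA minus saline and 2.52 and 2 for DSE minus OVA. At Lig1 they lay 10000 bp before and 5000 bp after, with 8.22 and -0.16 in OVA vs. saline.

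Away from the anchors, the Lig1 locus held the run with the largest difference in OVA vs. saline after the Spaca1 window. The 3 overlapping windows that start 30500 to 31500 bp after the anchor, at chr7:13302001-13304000 in introns and an exon of Lig1, were lower in both OVA-exposed groups. In the middle one, the saline mice had 77.6%, 73.8% and 69.9%, the OVA-induced mice 61.1%, 50.8% and 52.2% and the DSE-treated mice 58.7%, 54.4%, 54.6% and 47.6%. All 7 OVA-exposed mice were below all 3 saline mice, and the 2 OVA-exposed groups overlapped. The difference was -18.8 in OVA vs. saline (adjusted p = 1.46e-21, logistic model; 0.105, limma) and -0.815 in DSE vs. OVA (adjusted p = 0.814, logistic model). In DSE vs. saline it was -19.6 (limma adjusted p = 0.0288), with an exact two-sided permutation p of 0.0571, the smallest that 3 against 4 mice allow. This direction is opposite to that of the anchor, and the depth ratio was 1.03 in DSE vs. OVA at 363 to 537 calls.

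At the Soat1 locus, 4 intergenic windows that start 34000 to 38000 bp after the anchor were higher in OVA-induced mice. In that at 34500 bp the saline mice had 38.8%, 39.7% and 35%, the OVA-induced mice 49.3%, 53.2% and 50% and the DSE-treated mice 48.2%, 44.4%, 44.7% and 46.3%. The groups did not overlap, with a difference of 13.8 (adjusted p = 2.52e-07, logistic model; 0.111, limma) in OVA vs. saline and of -5.41 (adjusted p = 0.055, logistic model) in DSE vs. OVA. This window had 150 to 834 calls, with depth ratios of 0.681 (OVA to saline) and 3.12 (DSE to OVA), whose part in the difference was not tested. In that at 37500 bp, which held the same calls as that at 38000 bp, the difference was 10.8 (adjusted p = 3.04e-08, logistic model; 0.144, limma), and without saline replicate 2 or OVA-induced replicate 2 the call was lost. The call at 34000 bp (10.7) was lost without saline replicate 3 or OVA-induced replicate 2. The neighbour at 33500 bp, which overlaps it, was not called, with overlapping groups and a difference of 3.39 in OVA vs. saline (adjusted p = 0.547, logistic model). In OVA vs. saline the direction of the 4 called windows was that of the anchor. In DSE vs. saline these windows were higher by 5.27 to 8.35 points, without a call, where the anchor was lower by 24.7. At 34000 bp the OVA-induced and DSE-treated mice overlapped, with a difference of -2.7. No neighbour between 1000 bp and 33500 bp after the Soat1 anchor was in the table, so the stretch between was not measured here.

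Single windows were called at 2 further loci. At Gnb5 the window 26000 bp after the anchor, in an intron of Gnb5, had 63.5%, 68.5% and 60.0% in saline, 79.8%, 74.3% and 70.0% in OVA-induced and 64.2%, 68.9%, 66.6% and 66.3% in DSE-treated mice. The OVA-induced mice were above all others, with a difference of 10.8 in OVA vs. saline (adjusted p = 7.59e-08, logistic model; 0.189, limma) and of -8.07 in DSE vs. OVA (adjusted p = 3.06e-05, logistic model; 0.382, limma), at 372 to 520 calls and a depth ratio of 1.12. Its direction was opposite to that of the Gnb5 anchor, and without saline replicate 3 or OVA-induced replicate 1 the difference in OVA vs. saline fell short of 10 points. At Fut8 the window 28500 bp before the anchor had a difference of -11.3 in OVA vs. saline (adjusted p = 0.000555, logistic model; 0.266, limma), and the call was lost without OVA-induced replicate 3. There the groups overlapped, with OVA-induced replicate 1 at 59.9% and saline replicate 2 at 58.4%. No neighbour was called in either contrast with the OVA-induced mice among the tested neighbours of Nebl (11), Abi1 (19) and Srek1ip1 (15).

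**Figure D5:**
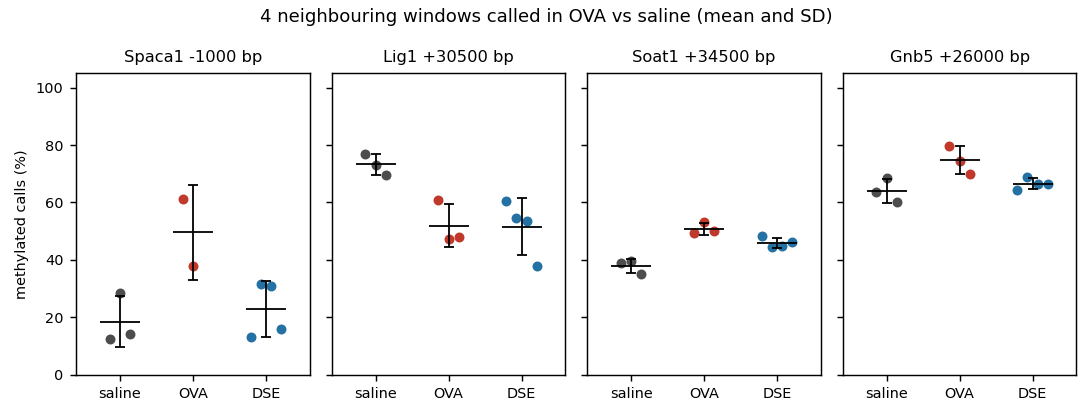
Methylated share of CpG calls (%) by mouse in 4 neighbours called in OVA vs. saline, 1000 bp before the Spaca1 anchor and 30500, 34500 and 26000 bp after those of Lig1, Soat1 and Gnb5. Points are mice with at least 20 calls, with the mean and SD. The Lig1 window is lower in both OVA-exposed groups, at means of 52.0% and 51.6% against 73.2% in saline mice.

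In DSE vs. saline, 5 of the 8 called neighbours were in the Lig1 locus. Besides the run above, the 2 windows that start 11000 and 10500 bp before the anchor, in Zswim9, were higher in DSE-treated mice, with 38.0% ± 6.72 (SD, n = 4) against 24.4% ± 1.31 (SD, n = 3) in the first and a difference of 12.9 at 2681 to 4519 calls. The OVA-induced mice had 33.9% ± 6.84 (SD, n = 3) there. The other called neighbours were 34000 bp before the Soat1 anchor, in an intron of Soat1 (14.8), and 30000 bp before and 23500 bp after the Gnb5 anchor, in introns of Myo5c and Gnb5 (-11.7 and 10.4). None of these, the run at 30500 to 31500 bp aside, was called in a contrast with the OVA-induced mice. The call 30000 bp before the Gnb5 anchor was lost without DSE replicate 1, and that 23500 bp after it without saline replicate 2 or 3 or DSE replicate 1 or 3.

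The start sites near the anchors differed by less than 1 point. Of 15 start sites within 50 kb, 13 lay in a window of the table, and their differences lay between -0.587 and 0.944 points in the 3 comparisons, so that none was called. The promoters of Abi1, of Soat1 and of the pair Srek1ip1 and Cwc27, which start in opposite directions and share a window, were at 0.628% to 1.74%, 0.898% to 2.96% and 0.514% to 1.17% over the 10 mice. That of Acbd5, a peroxisomal acyl-CoA binding protein, was at 1.1% to 2.44% and differed by 0.873 points in DSE vs. OVA (adjusted p = 6.52e-07, logistic model) on 3560 to 4787 calls. That of Shisal2b was at 1.3% to 2.7% and that of the Gnb5 transcript NM_138719.5 at 0.544% to 1.94%. Lig1 had start sites of both kinds, since the window of the upstream start (NM_001199310.2) was at 94.5% to 96.1% and the 2 downstream ones at 1.84% to 2.86% and 0.773% to 2.2%, beside that of Zswim9 at 2.76% to 3.91%. The start sites of Nebl NM_001362722.1 and Gnb5 NM_010313.2 were not analysed here.

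The partners of the named genes changed at few start sites. Of 57 genes listed for the roles of the 8 genes, 52 had windows within 1000 bp of a start site. In OVA vs. saline 6 of 297 of these windows (2.02%) were called, all lower, where 3.63% of all such windows in the genome were. They belonged to Cyfip2 (-15.5) and Nckap1l (-18.1), subunits of the WAVE complex, to Zpbp (-20.7), an acrosome protein, and to Srsf7 (-14), a splicing factor. The adjusted p of limma for these differences was 0.103, 0.116, 0.103 and 0.191. In DSE vs. OVA 3 of 297 (1.01%) were called, all higher, where 1.3% of all were, at Lig4 (14.2), a DNA ligase of end joining, Wasf3 (12.1), a WAVE protein, and Zpbp (14.5). With limma their adjusted p was 0.0253, 0.0921 and 0.139, so none was below 0.01. In DSE vs. saline 8 of 300 (2.67%) were called, 1 higher and 7 lower, where 4.35% of all were. The median difference of the listed windows was -0.0266, 0.192 and 0.152 in the 3 comparisons, and over all start site windows it was 0.0896, 0.183 and 0.36.

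Start sites of leukocyte genes moved between saline and OVA-exposed lungs. Of 53 tested windows at 10 pan-leukocyte genes, 27 (50.9%) were called in OVA vs. saline, 26 of them lower, and 27 (50.9%) in DSE vs. saline, all lower, where 3.63% and 4.35% of all start site windows were called. None of the windows in this paragraph passed with limma in OVA vs. saline, where it called 0 windows of the whole table. Their median difference was -10 and -10.3 in these comparisons and 0.155 in DSE vs. OVA. Their pooled methylation was 44.4% to 46.2% in saline, 35.4% to 38.4% in OVA-induced and 36% to 38.3% in DSE-treated mice, so that both OVA-exposed groups overlapped. At 5 eosinophil genes, 4 of which had windows, 1 of 10 windows (10%) was called in OVA vs. saline, and 2 of 10 (20%) were called in DSE vs. saline, with pooled levels of 43.5% to 46.1%, 39.7% to 43.4% and 38.9% to 43.8%. At 8 epithelial genes 3 (9.38%) and 6 (18.8%) of 32 were called in these comparisons, all higher, with 8.95% to 9.23%, 9.03% to 10.9% and 10.8% to 11.1%. The part of the cells present in the differences at the 8 loci was not tested.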

How the data were processed

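Methylation was measured in the lungs of 10 mice (saline n = 3, OVA-induced n = 3, DSE-treated n = 4) by SureSelect Methyl-seq with paired reads of 101 cycles. The authors aligned bisulfite reads to mm10 and deposited, for each mouse and each window of 1000 bp at steps of 500 bp, counts of CpG calls and of methylated and unmethylated calls. The submitters' notes name cutadapt 1.10, Bismark 0.19.0 and methylKit 1.0.0, and the methods name other versions, so which were used is not settled. The smallest deposited count was 10 calls in a window, and CpGs with fewer than 10 calls in a mouse were with few exceptions left out of its sums.

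Total calls were 306656737 to 410836272 per mouse, with a median of 343 to 504 per window. Windows were tested where at least 2 mice per group had at least 20 calls, as a logistic model of the pooled calls with a likelihood ratio test, adjusted by Benjamini-Hochberg over all windows tested, and called at an adjusted p below 0.01 with at least 10 percentage points between the groups. Alternatives were an F test in the same model, limma 3.58.1 on M-values with a pseudocount of 1, other minimums, distances and scalings, a replicate block and each mouse left out. Exact permutation tests were two-sided, and the smallest p of 3 against 3 mice is 0.1. Pairs of mice in a group differed by a mean chi-square of 2.64 to 3.76 per window, so none was treated as a repeat of another, and no source used here ties mice to a cage or batch. The logistic model, the F test, limma and the replicate block were run on simulated calls. In these, mice of a group differed only by the error of counting, so the runs do not cover the spread between mice. The rule named the closest tested neighbour on each side of an anchor, per locus up to 3 neighbours called in OVA vs. saline and up to 2 in DSE vs. OVA by adjusted p, 1 per run of overlapping windows, and genes with a start site within 50 kb. Further windows of a called run and those called in DSE vs. saline were named after their values were seen. Annotation, start sites and sequences came from RefSeq on GRCm38.p6. The loci and gene lists were chosen with earlier results of these data known. Python 3.11.15 with numpy 2.4.6, scipy 1.17.1 and pandas 2.3.3, and R 4.3.3, were used.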

Additional observations from a re-analysis of the deposited data

How the results depend on the processing

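The number of neighbours called was 10 for OVA minus saline, 1 for DSE minus OVA and 8 in DSE vs. saline. The F test and limma called 0 neighbours in each comparison. Over all windows the F test called 0 in each, and limma called 0, 8 and 2. A minimum difference of 20 points left 2 (1.23%, against 0.552% of all windows) in OVA vs. saline. It left 1 (0.613%, against 0.247%) in DSE vs. OVA and 1 (0.61%, against 0.582%) in DSE vs. saline. Windows that do not overlap gave 6 of 78 (7.69%), 0 and 5, where 7.31%, 1.61% and 7.97% of all such windows were called. Windows within 10 kb gave 1 of 39 (2.56%) in OVA vs. saline, 1 of 39 in DSE vs. OVA and 0 in DSE vs. saline. Over all windows the shares were 7.31%, 1.62% and 8.01%. In DSE vs. OVA a minimum of 50 calls, at least 20 calls in all 10 mice, and neighbours from 2000 bp gave 0. Over all windows 1.5%, 1.59% and 1.62% were called. These settings, and windows that do not overlap, leave out the Spaca1 window called in the main fit, so they cannot test its call. A minimum of 10 calls and calls scaled to the deepest mouse gave 2 each (1.2% and 1.23%, against 1.64% and 1.96% of all windows). Among windows of like depth in both groups, an alternative chosen after seeing the data, 0 of 95 were called in DSE vs. OVA. Over all such windows 0.62% were called. The Spaca1 window, at a depth ratio of 1.48, was not among them, so this setting cannot test its call either. With each mouse left out the counts ranged from 6 to 16, from 1 to 3 and from 8 to 10. In DSE vs. OVA there were 3 without DSE replicate 4 and 2 without OVA-induced replicate 2 or 3 or DSE replicate 2 or 3. The share of neighbours called was above that of all windows under 4 of 19 settings in OVA vs. saline, 2 of 20 in DSE vs. OVA and 1 of 20 in DSE vs. saline, among them the minimum of 20 points in each comparison. Beside the 19 changes by setting, 20 other settings kept the counts within 1.5 times.

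The replicate numbers name different mice, and deviations of same-numbered mice correlated between -0.0273 and 0.0785, so they do not pair the samples. With the replicate block the counts were 9, 1 and 9, and the 1 window in DSE vs. OVA was higher in DSE, whereas the one called without the block was lower.

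The median difference in the anchor's direction at 1 to 5 kb ranged from -0.51 to -0.147 for OVA minus saline and from 0.0487 to 0.743 for DSE minus OVA with each mouse left out, and was -0.0166 in DSE vs. OVA over windows that do not overlap. With each mouse left out the anchors kept their direction, taken from the pooled calls of the remaining mice with at least 20 calls. In OVA vs. saline the differences were 19.6 to 29.6 at Nebl, 28.2 to 39 at Lig1, 13.7 to 58.1 at Abi1, 35.4 to 48.1 at Spaca1, 19.6 to 26.3 at Soat1, -26.8 to -21.7 at Fut8, -23.5 to -17 at Gnb5 and -28.7 to -24.4 at Srek1ip1. In DSE vs. OVA they were -60.8 to -53, -49.8 to -38.9, -57.8 to -13.4, -29.2 to -23.5, -50.9 to -44.8, 39.9 to 44.7, 38.3 to 44.2 and 22.8 to 36.7. The extremes at Abi1 were those without OVA-induced replicate 1 or 2, and each rested on 1 OVA-induced mouse. The values at Fut8 without OVA-induced replicate 2 or 3 did so as well. Anchors with too few deep mice had no value at the minimum of 50 calls. The cause of these changes was not tested.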

Other observations

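The 166 neighbours differed in their usual level. In saline mice, the neighbours at Nebl ranged from 13.6% to 95% methylated, with 4 of 11 above 80%. No mouse stood far from the other DSE-treated mice in any of the 28 windows tested for it.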
